A study of Mus musculus with 8 samples.

Results

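Igdcc3, Igdcc4, Prtg (Protogenin), Neo1 (neogenin) and Dcc are 5 genes for transmembrane receptors built like DCC, and they were followed in the mandibular arch of mouse embryos with and without Alk5 in the neural crest. They were chosen by kinship as receptors and selected on their measured change between mutant and control arches. Every probe set annotated to exactly 1 of the 5 symbols was then taken, which gave 18 of the 45101 probe sets and 5 of the 18194 genes measured. The brightest probe set, the one with the highest mean over all arrays, stands for its gene, and the others are described beside it. Because the choice rested on the contrast between mutants and controls, the changes of the 5 genes are given as a description and carry no p-value.

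Gene expression was measured on 8 Affymetrix arrays, 1 per sample, in 4 Alk5 fl/fl controls and 4 Wnt1-Cre;Alk5 fl/fl mutants. Both groups were C57BL/6J embryos at embryonic day 11.5, of undetermined sex, and both carried the floxed Alk5 alleles. Alk5 encodes a type I receptor for TGF-beta and is now called Tgfbr1. The comparison asks what its loss from the neural crest does to gene expression in the arch, the tissue that forms the lower jaw. Wnt1-Cre acts in the neural crest lineage, which supplies most arch mesenchyme, so epithelium, endothelium, blood cells and muscle precursors in the same RNA kept the gene. The control genotype names no Cre, so effects of the driver and of the deletion cannot be told apart. The labels do not state that samples of a group came from different embryos or litters, so the p-values of limma measure the spread between these samples, which may in part be technical. In such bulk RNA, fewer cells of a type and less RNA per cell cannot be told apart.

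Receptors of this family carry immunoglobulin domains and fibronectin type III repeats outside the cell, a single membrane span and a cytoplasmic tail. DCC and neogenin are receptors for netrins, which guide axons and migrating cells, and neogenin also binds the RGM proteins, which act as coreceptors of BMP signalling. Protogenin is known from early embryonic tissues, among them the neural tube, somites and cranial neural crest. Igdcc3, first described as Punc, and Igdcc4, first described as Nope, are less well understood members of the family.

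The promoters of Igdcc3 and Prtg are shown because both genes had higher values in the mutants, and that of Igdcc4 because it is the adjacent gene and did not pass the threshold. Each stretch holds the 250 bases before the annotated start, 5′ to 3′ on the strand of the gene, from RefSeq on GRCm38.p6. Capitals mark CAGAC, the core letters of a SMAD binding element, on either strand.
Igdcc3 chr9:65140904-65141153 (+ strand): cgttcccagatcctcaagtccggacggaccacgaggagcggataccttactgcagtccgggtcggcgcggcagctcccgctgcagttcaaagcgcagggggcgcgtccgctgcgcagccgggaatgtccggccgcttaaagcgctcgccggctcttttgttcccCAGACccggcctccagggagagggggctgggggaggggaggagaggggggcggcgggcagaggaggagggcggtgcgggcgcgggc
Prtg chr9:72807024-72807273 (+ strand): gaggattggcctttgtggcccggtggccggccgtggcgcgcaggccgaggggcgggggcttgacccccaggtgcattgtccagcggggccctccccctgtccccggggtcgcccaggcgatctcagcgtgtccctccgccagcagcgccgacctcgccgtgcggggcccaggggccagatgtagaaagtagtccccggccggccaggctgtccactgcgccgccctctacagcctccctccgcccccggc
Igdcc4 chr9:65101236-65101485 (+ strand): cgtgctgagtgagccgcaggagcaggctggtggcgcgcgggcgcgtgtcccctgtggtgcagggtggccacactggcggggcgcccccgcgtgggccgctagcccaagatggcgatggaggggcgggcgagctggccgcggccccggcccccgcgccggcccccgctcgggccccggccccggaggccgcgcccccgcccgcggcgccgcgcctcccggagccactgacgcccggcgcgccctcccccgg

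Promoter sequences of 4 of the 5 genes were taken, and Dcc was left out, so nothing is said here of its promoter. They were searched over windows of 300 bases, 250 before and 50 after the start, on both strands, for 5 motifs. Igdcc3 held 1 CAGAC, at position -86 from the start, and none was found in the windows of Prtg, Igdcc4 and Neo1. CAGAC occurred in 49.6% of the 32851 promoters of the same length. GGCGCC, another SMAD-bound sequence, occurred 3 times in the Igdcc4 window and 1 time in that of Neo1, and in 11.9% of all promoters. This motif holds only G and C, and both windows were far richer in GC than most promoters. The share over all promoters is therefore not a matched background for it. CCAAT was present at position -246 in Prtg and 1 time in Neo1, against 37.4% of all promoters. TATAAA and CACGTG, found in 13.6% and 7.15% of all promoters, were absent from all 4 windows. The 4 windows were also alike in composition. The GC content was 73.3% for Igdcc3, 76.7% for Prtg, 84.7% for Igdcc4 and 82.7% for Neo1, against a median of 52.7% over all promoters. They held 38, 35, 49 and 54 CpG dinucleotides in the same order, against a median of 7. Among these 4, genes with higher values in the mutants and genes without a call alike had such GC-rich windows.

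Over all genes, 390 of 18194 passed an adjusted p of 0.05 in limma (2.14%), with 152 higher in mutants (0.835%) and 238 lower (1.31%). The median change over all genes was -0.01 on the log2 scale. The arrays had median log2 values between 6.283 and 6.423. Mutant 3 stood apart, with an SD over all probe sets of 2.415, where the other arrays had 2.522 to 2.56, and its correlation with other arrays went down to 0.9861. The brightest Tgfbr1 probe set read 12.71 to 12.90 in controls and 12.97 to 12.99 in mutants, a difference of 0.19 with a limma adjusted p of 0.232. Its other probe sets had log2 changes of 0.51 and 0.30, also without a call. The sources used here do not place these probe sets relative to the floxed exon, so they do not check the deletion.

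Igdcc3 and Prtg were higher in mutant than in control arches, Igdcc3 by 11.3-fold and Prtg by 4.71-fold, whereas Igdcc4, Neo1 and Dcc did not pass the threshold. Among the 5 genes, 2 were called, and both were higher in the mutants, beside 2.14% of all genes called in either direction and 0.835% called higher. The groups of arrays did not overlap for the same 2 genes, as was the case for 10.3% of all genes. These counts follow from how the genes were chosen.

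Igdcc3, which encodes Punc, had on its brightest probe set, 1439498_at, log2 values of 8.57, 7.90, 8.44 and 9.99 in controls 1 to 4 and of 12.20, 12.10, 12.16 and 12.42 in mutants 1 to 4. All mutants lay above all controls, and control 4 was the highest of its group. The mean went from 8.72 ± 0.894 (SD, n = 4) to 12.22 ± 0.138 (SD, n = 4). The log2 change was 3.49, with an SE of 0.363 and a 95% interval of 2.68 to 4.31. The controls were thus more spread than the mutants, which lay within a narrow range. Without control 4, the control nearest to the mutants, the change was 3.92, with an SE of 0.16. Leaving out each of the other arrays in turn gave 3.22 to 3.53, with SEs of 0.335 to 0.422.

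A second Igdcc3 probe set, 1423496_a_at, read 6.04, 5.92, 5.86 and 6.38 in the controls and 8.24, 7.82, 7.64 and 8.20 in the mutants. Its log2 change was 1.92, with an SE of 0.159, and control 4 was again the highest control. The third, 1444981_at, did not share this difference. It read 6.83, 6.75, 6.71 and 6.78 in controls and 6.62, 6.71, 6.75 and 6.79 in mutants, a log2 change of -0.05 with a 95% interval of -0.21 to 0.11. The mean over the 3 probe sets gave a log2 change of 1.79 for the gene, a smaller difference than that of the brightest.

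Prtg, which encodes Protogenin, had on its brightest probe set, 1456329_at, log2 values of 7.10, 7.52, 7.31 and 7.95 in controls 1 to 4 and of 9.78, 9.53, 9.16 and 10.36 in mutants 1 to 4. The groups did not overlap, and control 4 and mutant 4 were the highest of their groups. The mean went from 7.47 ± 0.360 (SD, n = 4) to 9.71 ± 0.504 (SD, n = 4). The log2 change was 2.24, with an SE of 0.252 and a 95% interval of 1.67 to 2.80. The other 2 Prtg probe sets had the same direction. Probe set 1438410_at read 7.27, 7.06, 7.21 and 7.41 in controls and 9.0, 8.80, 8.64 and 9.17 in mutants, a log2 change of 1.67 with an SE of 0.123. Probe set 1438333_at was dim, with a mean under the lower quartile of all probe sets (4.842), and read 3.59, 3.52, 3.80 and 3.76 in controls and 4.94, 4.53, 4.24 and 4.60 in mutants. Its log2 change was 0.91, with an SE of 0.139. Mutant 3 was the lowest mutant on all 3 Prtg probe sets, and the mean over the 3 gave a log2 change of 1.60.

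**Figure D1:**
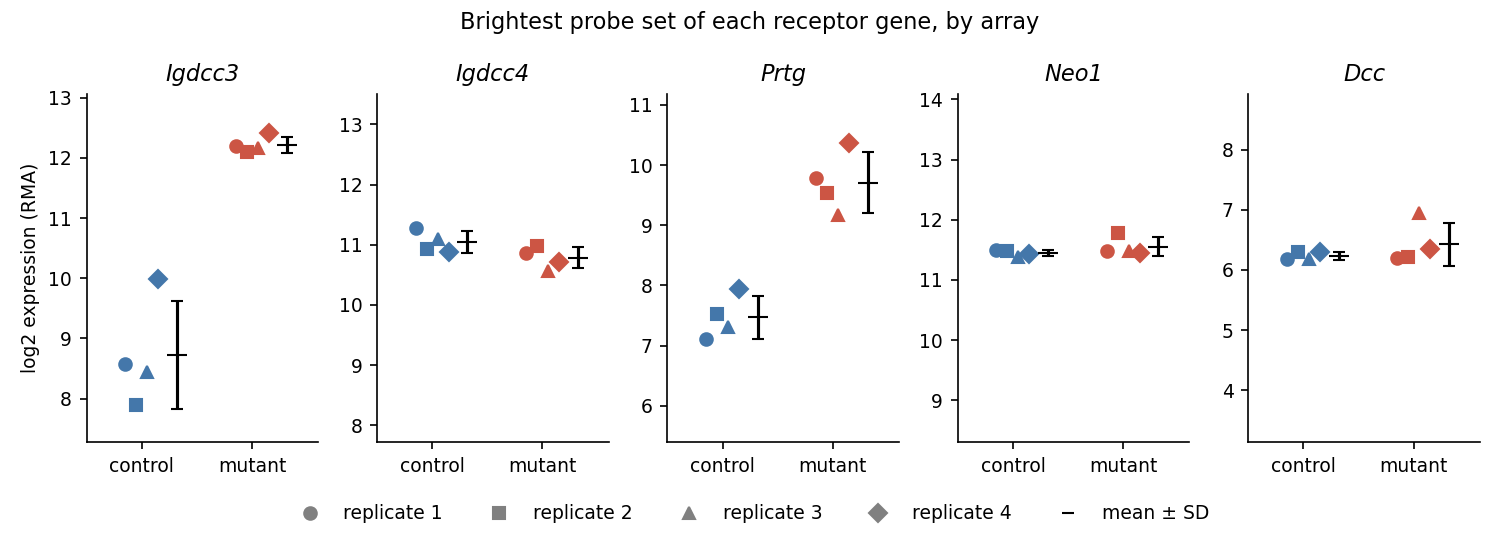
Log2 expression (RMA) of the brightest probe set of each of the 5 receptor genes in 4 control (blue) and 4 mutant (red) arrays, with the replicate number as the marker shape and the mean ± SD in black. Each panel spans the same number of log2 units. The Igdcc3 mutants sit between 12.10 and 12.42 and the controls between 7.90 and 9.99, Prtg separates in the same direction, and the groups overlap for Igdcc4, Neo1 and Dcc.

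Igdcc4, which encodes Nope and lies next to Igdcc3, did not pass the threshold and had a difference of the opposite sign. Its brightest probe set, 1416473_a_at, read 11.28, 10.92, 11.10 and 10.87 in controls and 10.87, 10.98, 10.57 and 10.72 in mutants. The groups overlapped, and the log2 change was -0.26, with an SE of 0.117 and a 95% interval of -0.52 to 0.0026. Probe set 1416474_at read 9.34, 9.24, 9.19 and 9.01 in controls and 8.89, 9.02, 8.57 and 8.68 in mutants. Only mutant 2 reached the lowest control there, and the log2 change was -0.40, with a 95% interval of -0.66 to -0.15, but it was not called over all probe sets. The remaining Igdcc4 probe sets, 1443272_at and the dim 1458958_at, had log2 changes of -0.12 and -0.08.

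Neo1, which encodes neogenin, had on its brightest probe set, 1447693_s_at, log2 values of 11.50, 11.49, 11.38 and 11.43 in controls and of 11.47, 11.79, 11.49 and 11.45 in mutants. Apart from mutant 2, the arrays of both groups lay within the same narrow range. The log2 change was 0.10, with a 95% interval of -0.10 to 0.30. Probe set 1434931_at had a log2 change of 0.05, with an interval of -0.16 to 0.26. Probe set 1447694_x_at had a log2 change of 0.30 with an interval of -0.36 to 0.96, and mutant 3 alone stood high on it, at 8.49 against 6.77 to 7.32 in the other mutants. Probe set 1444295_at had a log2 change of 0.41, with an interval of 0.12 to 0.69, without a call. The dim probe set 1440789_at had a log2 change of -0.15.

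Dcc, the netrin receptor after which the family is named, read on its brightest probe set, 1422162_at, 6.19, 6.29, 6.18 and 6.30 in controls and 6.20, 6.21, 6.95 and 6.35 in mutants. Mutant 3 was the only array above 6.35. The log2 change was 0.19, with a 95% interval of -0.16 to 0.53, and it was 0.01 without mutant 3. The other Dcc probe sets, 1440487_at and 1441572_at, were dim and had log2 changes of -0.15 and -0.13, and the mean over the 3 probe sets gave -0.03.

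When all 45101 probe sets were fitted together, 381 were called (0.845%). Of the 18 receptor probe sets 5 were called, 2 of 3 for Igdcc3 and 3 of 3 for Prtg, and none of the 4 for Igdcc4, the 5 for Neo1 and the 3 for Dcc. The same number, 5, had groups of arrays that did not overlap, against 7.16% of all probe sets, and this count too follows from the choice of genes. In total 5 of the 18 were dim, 1 each for Igdcc4, Prtg and Neo1 and 2 for Dcc.

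**Figure D2:**
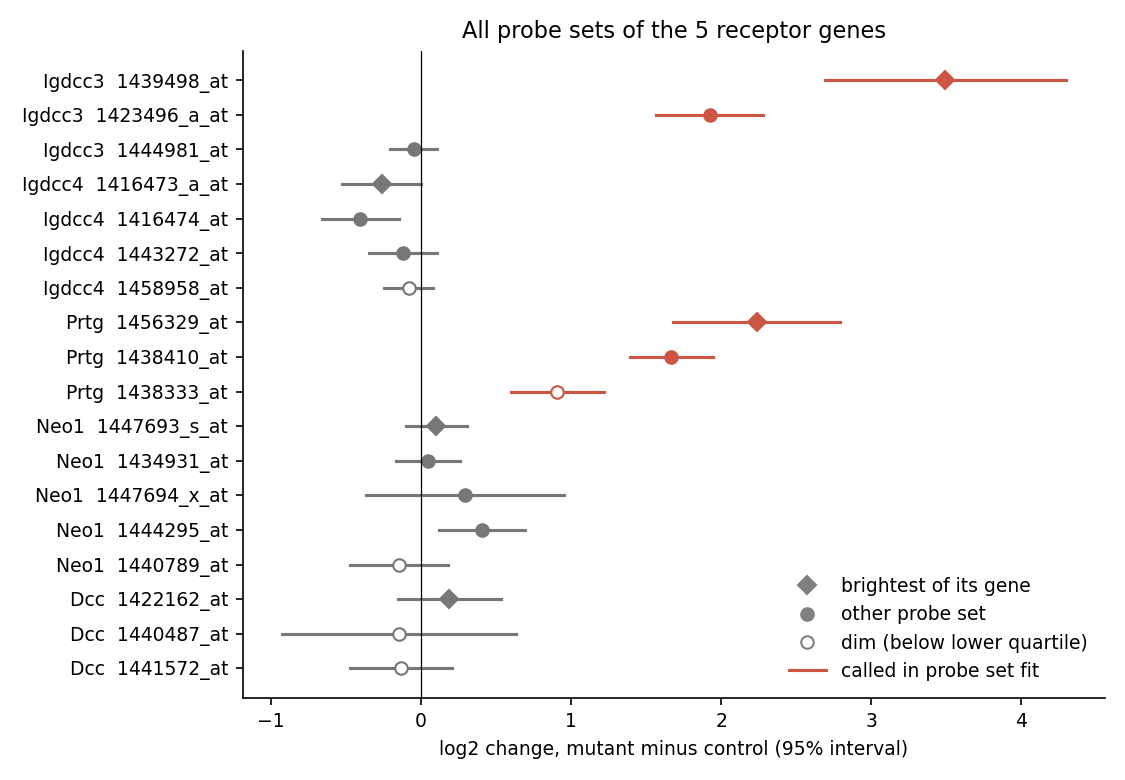
Log2 change, mutant minus control, with its 95% interval for each of the 18 probe sets of the 5 genes (diamonds, the brightest of a gene; open symbols, dim probe sets; red, called in the fit over all probe sets). The 3 Prtg probe sets and 2 of 3 for Igdcc3 lie to the right of 0, from 0.91 to 3.49, and the third Igdcc3 probe set lies at -0.05.

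Control 4 was placed nearer to the mutants than the other controls were on most of the called probe sets. The place of an array was expressed as its share of the way from the control mean (0) to the mutant mean (1), with the array itself left out of the mean of its own group. Control 4 stood at 0.432 and 0.217 on the Igdcc3 probe sets 1439498_at and 1423496_a_at. On the Prtg probe sets 1456329_at, 1438410_at and 1438333_at it stood at 0.264, 0.132 and 0.126. The other controls ranged from -0.342 to 0.181, and control 3 was above control 4 on the dim Prtg probe set. The mutants ranged from 0.558 to 1.62, and mutant 3 had the lowest share among them on 4 of these 5 probe sets.

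The genes with the most similar pattern were found by centring each gene on its mean over the 8 arrays and taking the mean absolute difference in log2 units, so the change between groups weighs heavily in the likeness. For Igdcc3 the nearest were Lin28a at 0.599, Prtg at 0.67 and Trim71 at 0.69, against a median of 1.75 over all genes. For Prtg the nearest were Trim71 at 0.128, Sall4 at 0.198 and Csn3 at 0.202, against a median of 1.12. Prtg was thus among the genes nearest to Igdcc3, whereas Prtg itself had closer neighbours in pattern. Igdcc3 and Prtg were both selected on their change between groups, so their nearness follows in part from the choice.

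Lin28a, an RNA-binding protein of early embryonic and stem cells, read 4.95, 4.71, 4.96 and 5.41 in controls and 7.85, 7.17, 6.89 and 8.36 in mutants. Trim71, an RNA-binding protein of early development, read 6.89, 7.04, 7.16 and 7.81 in controls and 9.31, 9.13, 8.94 and 9.96 in mutants. Sall4, a zinc finger transcription factor of stem cells and the early embryo, read 7.91, 8.30, 8.39 and 8.84 in controls and 10.23, 10.01, 9.93 and 10.76 in mutants. On the brightest probe sets of these 3 genes control 4 was the highest control, mutant 4 the highest mutant and mutant 3 the lowest mutant, as in Prtg. The genes were picked for their likeness on these probe sets, so a shared order of arrays follows in part from the choice. Csn3, the gene of the milk protein kappa-casein, had a log2 change of 2.33 on its brightest probe set and -0.03 on a second, dim one. The second probe sets of Lin28a, Trim71 and Sall4 had log2 changes of 0.35, 1.67 and 1.24. The order of the arrays was not the same on all of these: on the second Sall4 probe set control 4 was the lowest control, at 5.77 against 6.16 to 6.60 in the others.

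**Figure D3:**
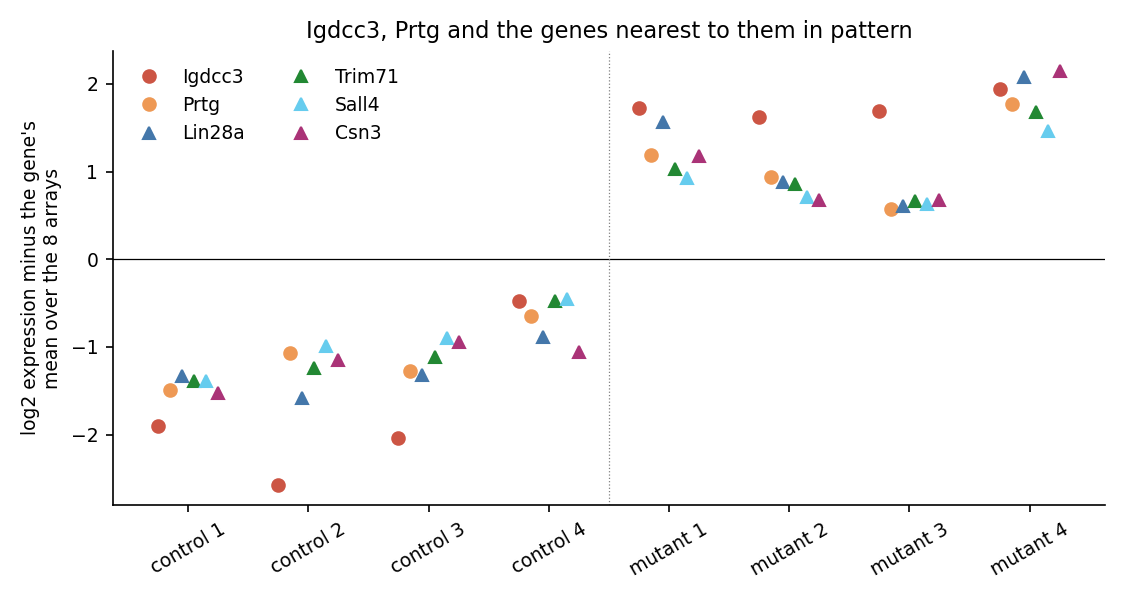
Log2 expression minus the mean of the gene over the 8 arrays, by array, on the brightest probe sets of Igdcc3 and Prtg (circles) and of the genes nearest to them in pattern (triangles). All 6 genes lie below 0 in the controls and above 0 in the mutants. Igdcc3 has the widest range, and for 5 of the 6 genes, all but Csn3, control 4 is the highest control. The genes shown as triangles were picked for their likeness on these probe sets, so what they share follows in part from the choice.

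Of the secreted partners of these receptors, the netrins, RGM proteins and other ligands, Cbln4 alone was called. It was 1 of 9 ligands (11.1%, against 2.14% of all genes), and it fell. The median change of the 9 was -0.03, against -0.01 over all genes. Cbln4, a cerebellin-family protein that binds DCC and neogenin, read 8.27, 9.27, 9.27 and 7.52 in controls and 5.74, 5.78, 5.26 and 5.01 in mutants. The groups did not overlap, and control 4 was the lowest control. Its log2 change was -3.13, with an SE of 0.373 and a limma adjusted p of 0.00457. Its fall was known from these data when it was put on the list, so its call adds no independent evidence.

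Ntn1, the netrin that binds DCC, read 8.81, 7.78, 7.95 and 8.0 in controls and 8.19, 8.37, 7.50 and 7.65 in mutants, a log2 change of -0.20. The groups overlapped widely. The other netrins had log2 changes of -0.12 for Ntn3, -0.03 for Ntn4 and 0.04 for Ntn5. The RGM proteins, ligands of neogenin, had log2 changes of 0.05 for Rgma, 0.14 for Rgmb and 0.03 for Hjv, the gene of hemojuvelin. Draxin, which binds DCC, had a log2 change of -0.26 with a limma adjusted p of 0.324, and 0.11 on a second probe set. Draxin and Cbln4 were the 2 ligands with an unadjusted p under 0.05.

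Among 16 other receptors and membrane partners 2 were called (12.5%, against 2.14% of all genes), 1 in each direction, and the median change was -0.03. Bmpr1b, a type I BMP receptor, read 8.83, 8.04, 8.37 and 9.15 in controls and 10.09, 10.02, 9.71 and 9.94 in mutants. It rose by 1.34 on the log2 scale, with an SE of 0.213 and a limma adjusted p of 0.0157, and the groups did not overlap. The call was lost without control 3, at an adjusted p of 0.0679, and without mutant 4, at 0.0592. The other probe sets of the gene gave log2 changes of 0.14 and, on a dim one, 1.04.

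Robo1, a Slit receptor that can bind DCC, read 12.07, 11.95, 12.04 and 11.82 in controls and 11.39, 11.62, 11.16 and 11.21 in mutants. Its log2 change was -0.62, with an SE of 0.111 and a limma adjusted p of 0.0242. The call was lost when the 3 probe sets were averaged, where the log2 change was -0.37, and without control 1, 2 or 3 or mutant 1 or 4 in turn, at an adjusted p of up to 0.0983. Its other probe sets had log2 changes of -0.29 and -0.19.

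Unc5c, a netrin receptor that pairs with DCC in repulsion, read 9.67, 9.54, 9.60 and 9.61 in controls and 9.86, 10.27, 10.03 and 9.91 in mutants. All mutants lay above all controls, by a log2 change of 0.41 that missed the threshold at a limma adjusted p of 0.0628, and a second probe set had 0.38. It passed when only genes above the median level were tested, with a trended and robust variance model, and with array weights. Unc5d had a log2 change of -0.78, and control 4, at 4.39, lay far under the other controls at 5.78 to 5.99. Without control 4 its log2 change was -1.16, with a limma adjusted p of 0.0291, and it passed also when both control 4 and mutant 3 were left out. Unc5a and Unc5b had log2 changes of 0.06 and -0.09.

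Of the remaining partners none passed. Dscam, an immunoglobulin-family receptor that binds netrin, and its relative Dscaml1 had log2 changes of 0.12 and 0.14. Robo2 and Robo3 had -0.22 and 0.01. The LRIG proteins, which bind neogenin, had log2 changes of 0.22 for Lrig1, -0.06 for Lrig2 and -0.12 for Lrig3. The BMP receptors Bmpr1a and Bmpr2 had -0.12 and -0.29, and Tmprss6, the protease that cleaves hemojuvelin, had 0.10.

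**Figure D4:**
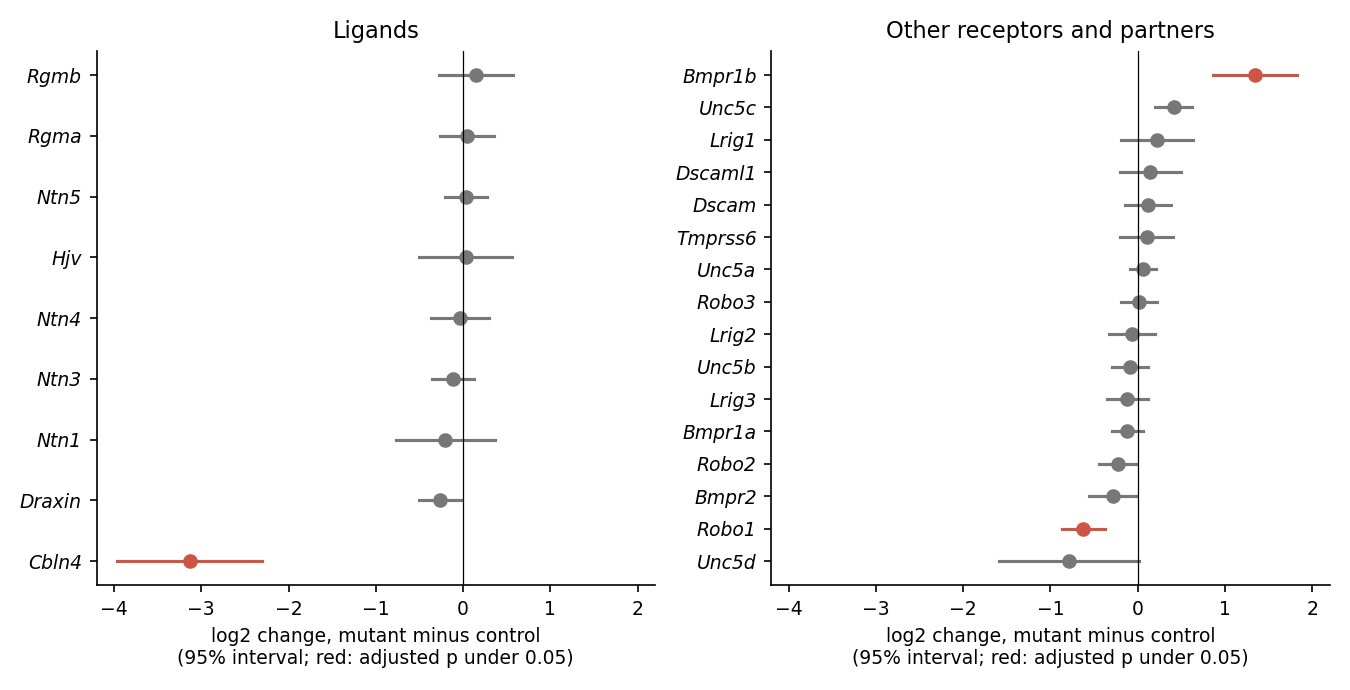
Log2 change, mutant minus control, with its 95% interval for 9 ligands (left) and 16 other receptors and partners (right), red where the limma adjusted p was under 0.05. Cbln4 at -3.13, Robo1 at -0.62 and Bmpr1b at 1.34 are red, and most of the others lie near 0.

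The intracellular partners, proteases and binding proteins of DCC, neogenin and Protogenin were listed as well. Of its 32 genes, 27 were measured, and 1 of the 27 was called (3.7%, against 2.14% of all genes), with a median change of -0.07. Tubb3, a neuronal tubulin that binds DCC, read 8.86, 9.23, 9.09 and 8.08 in controls and 7.44, 7.41, 6.75 and 7.01 in mutants. It fell by 1.67 on the log2 scale, with an SE of 0.249 and a limma adjusted p of 0.0126. The call was lost without control 3, at an adjusted p of 0.0519, and without mutant 4, at 0.0538. Tubb3 was also the only one called of 11 markers of neurons and the neural tube. In that list 3 had an unadjusted p under 0.05, Tubb3, Stmn2 with a log2 change of -0.95 and Sox2 with -0.41, the latter 2 named after their values were seen. Enah, an actin regulator, had the largest positive log2 change of the 27, at 0.10.

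Igdcc4 and Igdcc3 lie side by side in RefSeq, with 0 other genes between them, and Prtg and Neo1 lie on the same chromosome. In the order of the 1002 measured genes of chromosome 9, Neo1 is number 432, Igdcc4 number 486, Igdcc3 number 487 and Prtg number 549, and Dcc lies on another chromosome. The 5 measured genes on each side of each receptor gene make 40 neighbours. Of these, 0 were called by limma (2.14% of all genes were), with the smallest adjusted p at 0.275, and 2 had an unadjusted p under 0.05, Cilp with a log2 change of -0.37 and Poli with -0.30, both named after their values were seen. The log2 changes of the 40 ranged from -0.37 to 0.28. Of the 40, 7 were dim, among them Cilp and Dynap, which set the lower and upper ends of this range. The genes next to the Igdcc4 and Igdcc3 pair were Dpp8 at -0.07 and Parp16 at 0.02. Those next to Prtg were Nedd4 at -0.02 and Pygo1 at 0.06, those next to Neo1 were Rec114 at 0.01 and Adpgk at 0.08, and those next to Dcc were Mbd2 at -0.19 and Mex3c at -0.01. Mbd2 was the 1 neighbour of 40 whose groups of arrays did not overlap, against 10.3% of all genes. Leaving out both control 4 and mutant 3 added 1 call, Ccpg1os near Prtg, at a log2 change of 0.39.

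**Figure D5:**
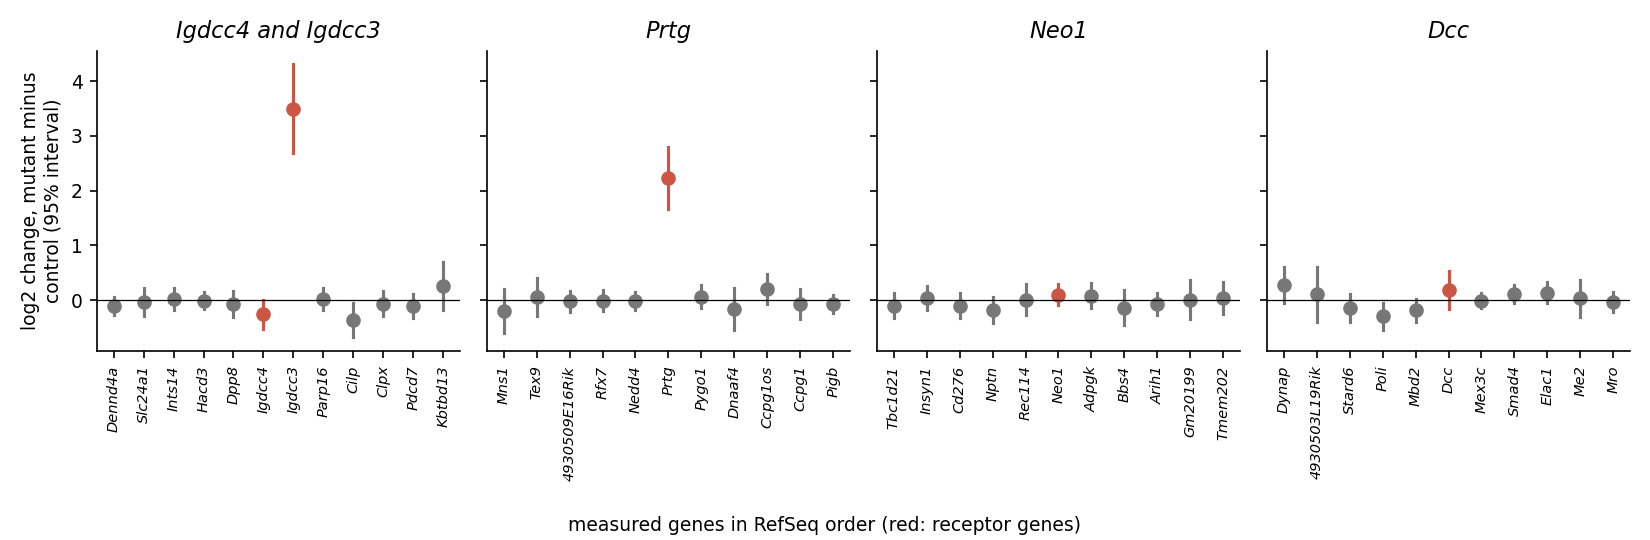
Log2 change, mutant minus control, with its 95% interval for the receptor genes (red) and the 5 measured genes on each side of them (grey), in RefSeq order along the horizontal axis. Igdcc3 at 3.49 and Prtg at 2.24 stand above flanking genes that lie between -0.37 and 0.28.

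Markers of the labelled tissue and of other cells were listed. All 10 markers of arch mesenchyme, among them Hand2, Prrx1 and Alx4, had a mean above the lower quartile of level, with 0 called by limma and 5 at an unadjusted p under 0.05. All measured markers of macrophages, endothelium, epithelium and muscle precursors were above that quartile too, so this level does not single out the tissue. Of the 10 arch mesenchyme markers, 8 had lower means in the mutants, and their median change was -0.12. The groups of arrays did not overlap for 4, named after their values were seen, against 10.3% of all genes: Msx1 with a log2 change of -0.58, Prrx1 with -0.34, Hand2 with -0.27 and Twist1 with -0.16. Their part in the values of the receptor genes was not tested. Of 5 Hox genes of the second and later arches, Hoxa2 and Hoxd3 were dim. Hoxb2 rose by 0.83 on the log2 scale, with a limma adjusted p of 0.0104, and it was the only one called of the 5, against 2.14% of all genes.

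Macrophage markers were, like Igdcc3 and Prtg, higher in the mutants than in the controls. The order of arrays within the controls was not shared. Control 4, the highest control for Igdcc3 and Prtg, was the highest for none of these markers on their brightest probe sets. Of 10 such markers 9 were called higher (0.835% of all genes were), and the last, Mrc1, had a log2 change of 0.35 without a call. The list was drawn up with earlier results of these data known, so this count adds no independent evidence. The median change of the 10 was 1.16. The log2 of their summed level lay at 10.704 to 10.885 in controls and at 11.758 to 12.203 in mutants. C1qb and C1qc, subunits of complement C1q, had log2 changes of 1.54 and 1.52, and none of the 10 was dim. The part of these cells in the values of Igdcc3 and Prtg was not tested. The markers of erythroid cells (7 measured), endothelium (8), epithelium (8) and muscle precursors (7) had 0 calls by limma each, with 2, 1, 1 and 1 at an unadjusted p under 0.05. The share of all genes at that unadjusted p is not given here, so these counts are not set against it.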

How the data were processed

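The deposited table holds log2 expression per probe set for 8 arrays, which the authors made with RMA per the submitters' processing notes, in a version not known here. This method subtracts background, normalizes between arrays, summarizes probes into probe sets, and compresses differences at low levels. The deposited quartiles still differed between arrays, most for mutant 3 (4.992 and 8.357, against 4.775 to 4.846 and 8.625 to 8.709 on the others). Total RNA came from the mandibular arch, per the labels' protocols. Of 45101 probe sets, the platform annotation gave 1 symbol to 34958, several to 932 and none to 9211. Of those with 1 symbol, 34754 were found by Entrez identifier in RefSeq (GRCm38.p6), with 0 renamed. The brightest probe set stood for each of 18194 genes. The values come with no genome build, so the only coordinates given are those of the RefSeq promoters.

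Mutants were compared with controls in limma 3.58.1 (R 4.3.3; lmFit, eBayes, no covariates), with Benjamini-Hochberg adjustment over all genes, or over all probe sets where probe sets are counted. Called means an adjusted p under 0.05. Counts at an unadjusted p under 0.05 are printed without the share of all genes, so none is read as high or low. Intervals cover 95%. A dim probe set or gene has a mean under the lower quartile of all probe sets, 4.842. The members, the gene lists and the rules were chosen with earlier results of these data known. Genes were named by rule: the 5 receptor genes, all measured ligands and other receptors, called effectors and the largest change among effectors each way, the nearest neighbour on each side, called neighbours, the 3 nearest patterns, up to 2 called genes per cell type list, and Tgfbr1. Some listed genes were not analysed here. The fit was tested on simulated arrays, but the outcome is not given here, so no result rests on it. The alternatives were a replicate block, other choices of probe set, filters on dim genes, quantile normalization, other variance models, array weights, Xist as a covariate, a stricter threshold and leaving out arrays. The number of arrays limits the precision.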

Additional observations from a re-analysis of the deposited data

Results flagged for a closer look

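In 122 groups of 4 arrays, each group of each named probe set was checked for 1 array far from the other 3, by Dixon's ratio of its gap to the whole range at the 95% level. Chance flags about 1 group in 20, and 7 were found. For Neo1, mutant 2 read 11.79 on 1447693_s_at against 11.45 to 11.49 in the other mutants, and control 2 read 10.24 on 1434931_at against 10.05 to 10.08 in the other controls. Control 4 was low for Ntn3, at 4.95 against 5.19 to 5.23, and for Unc5d, at 4.39 against 5.78 to 5.99. Among the neighbours, Dpp8 read 9.39 in control 1 against 9.46 in the other controls, Mbd2 read 9.67 in mutant 3 against 10.01 to 10.05 in the other mutants, and Mex3c read 12.51 in mutant 4 against 12.53 to 12.54. None of the 7 concerned Igdcc3, Prtg, Igdcc4 or the brightest Dcc probe set.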

How the results depend on the processing

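Igdcc3 and Prtg kept their direction and their call under all 18 alternatives, with log2 changes of 1.79 to 3.94 and 1.60 to 2.58. Both genes were selected on this contrast, so refits of the same arrays add no independent evidence for their change. Igdcc4 and Neo1 stayed without a call, from -0.33 to -0.18 and from 0.02 to 0.14, and Dcc went to -0.030 with the mean of all probe sets and was not tested among genes above the median level. The 390 called genes became 620 after quantile normalization, 1356 with array weights, 1126 without both control 4 and mutant 3, 82 at an adjusted p of 0.01, and 104 to 618 without 1 array. The called ligands became 0 among genes above the median, where Cbln4 was not tested. The called other receptors became 1 with the mean of all probe sets, 0 at the stricter threshold, 0 to 3 without 1 array, and 3 among genes above the median, with the trended and robust variance model, with array weights and without both control 4 and mutant 3. The called effectors became 0 at the stricter threshold and 0 to 1 without 1 array, and the called neighbours 1 without both arrays. Where no construction is named, the cause was not tested. The labels do not say whether replicate numbers pair the samples, and the correlations do not settle it. Deviations of same-numbered arrays correlated at 0.101, -0.0515, -0.105 and 0.342, and 3 of 8 arrays correlated best with their own number. Control 4 and mutant 4 were each the other's best match. A replicate block lowered the SE from 0.363 to 0.257 for Igdcc3 and from 0.252 to 0.1445 for Prtg. It raised the SE of Unc5c from 0.0947 to 0.107. With the replicate block 293 genes were called. Of 43 other named genes, 8 of the 11 called stayed under an adjusted p of 0.05 in every alternative in which they were tested. The others were Bmpr1b, Robo1 and Tubb3. At the stricter threshold of 0.01, Hoxb2 also lost its call, at a limma adjusted p of 0.0104. Of the 32 uncalled, 3 gained a call at 0.05, Unc5c, Unc5d and Tgfbr1. For dim probe sets, RMA compression limits the size of a difference that can be seen.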
